A study of Mus musculus with 2 samples.

Results

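Ubiquitin ligase substrate adaptors are described here by the peaks they hold in a ChIP for tagged Pax7 in muscle stem cells. The members are the 137 protein-coding genes of GRCm38 whose symbols begin with Fbxo, Fbxw, Fbxl, Asb, Spsb or Klhl and a number, out of 21770 protein-coding genes. There were 36 Fbxo, 24 Fbxw, 18 Fbxl, 18 Asb, 4 Spsb and 37 Klhl genes. A gene held a peak when the summit lay inside its span, or when one of its ends was the nearest protein-coding gene end within 50 kb of the summit. The families were proposed with earlier results of these data known, and the genes said to hold a peak were chosen by the summit positions of the same ChIP library, so the counts below are descriptions and were not tested.

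The data came from chromatin immunoprecipitation with sequencing (ChIP-seq) in untreated muscle stem cells sorted from C57BL/6 mice of the genotype Pax7-YFP KI, a knock-in of yellow fluorescent protein at Pax7. One group was the ChIP library (n = 1, 10622111 tags), recovered with an antibody against GFP, which also serves to pull down YFP-tagged protein. The control group was input DNA from cells of the same strain and genotype (n = 1, 20429667 tags), so both libraries carry the allele. No library had a replicate, no ChIP from cells without the tag was analysed here, and the age and number of the mice are not given in the sources used here. A peak list measures no RNA, so the cell type of the sort was not checked against expression of its markers. Each peak has a pileup (ChIP fragments over the summit) and a fold enrichment, both from the authors' peak caller. The caller's scaled input background was recovered from these values. The 95% intervals after a fold are exact Poisson intervals of the pileup with the background held fixed, and cover counting error only.

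PAX7 is a transcription factor made by the stem cells that lie under the basal lamina of muscle fibres, and it carries a paired domain and a homeodomain, each of which binds its own DNA motif. Cullin ubiquitin ligases tag proteins for breakdown or altered function, and their interchangeable adaptors choose the substrate. F-box proteins (Fbxo, Fbxw, Fbxl) join Skp1 and Cul1, SOCS-box proteins (Asb, Spsb) join elongins B and C and Cul5, and BTB-kelch proteins (Klhl) join Cul3. Muscle uses several of them in atrophy, sarcomere upkeep and differentiation, the F-box protein encoded by Fbxo32 (atrogin-1) being the best known.

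Of the 137 adaptor genes, 21 held a peak (15.3%, Wilson interval 10.2 to 22.3%), against 9.63% of all protein-coding genes under the same rule. These 21 genes held 27 of the 2977 peaks. The families were uneven, with 9 of 36 Fbxo genes (25%, 13.8 to 41.1%), 4 of 18 Asb genes (22.2%, 9.0 to 45.2%) and 2 of 4 Spsb genes (50.0%, 15.0 to 85.0%). Lower shares were found for Fbxl with 2 of 18 (11.1%, 3.10 to 32.8%), Klhl with 3 of 37 (8.11%, 2.80 to 21.3%) and Fbxw with 1 of 24 (4.17%, 0.739 to 20.2%). All family intervals overlapped each other, and no difference between families was tested. Adaptor genes were longer than the typical gene, with a median span of 25.6 kb against 17.2 kb, and the rule lets longer genes hold more summits. Among genes of 17.2 to 44.5 kb, 9 of 51 adaptors held a peak (17.6%) against 9.76% of all genes, and among longer genes 11 of 39 (28.2%) against 17.7%. Among the shorter genes 1 of 36 adaptors from 5.71 to 17.2 kb (2.78%, against 7.0% of all genes) and 0 of 11 still shorter ones (against 4.02%) did.

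**Figure D1:**
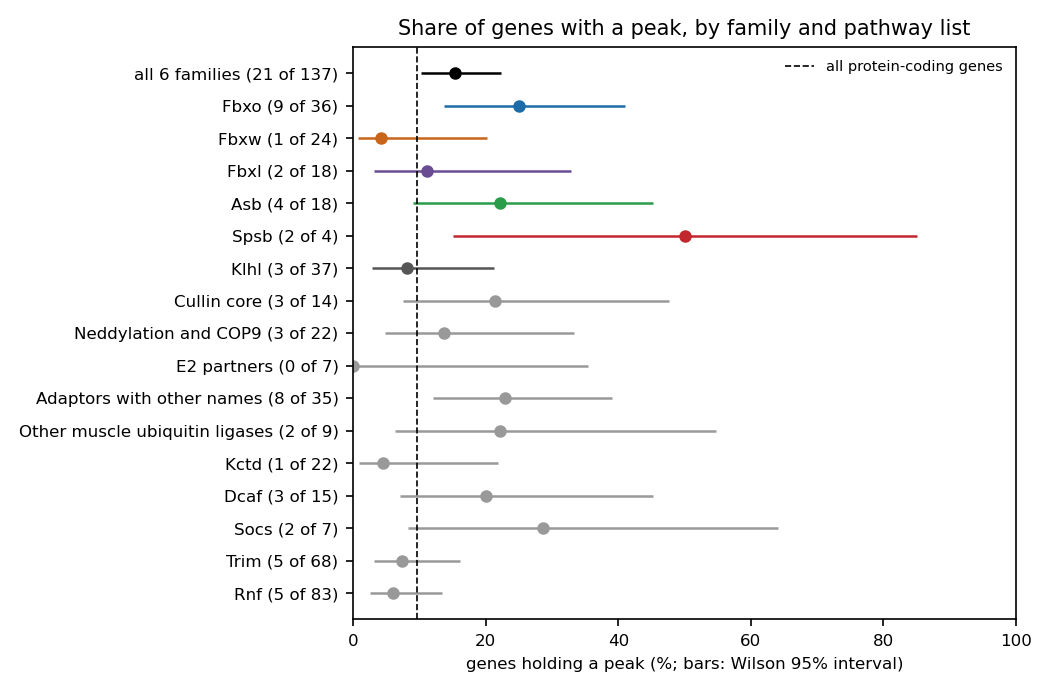
Percent of genes that hold a peak, for the 6 adaptor families (coloured), all of them together (black) and the pathway lists (grey). Points are shares and bars Wilson 95% intervals, the counts stand beside the names, and the dashed line is the 9.63% of all protein-coding genes; the Spsb point is highest at 50.0% but rests on 4 genes.

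In strength the adaptor peaks were ordinary members of the list. The highest fold per gene had a median of 7.59 over the 21 adaptor genes, and also 7.59 over all 2096 genes with a peak. Pileups ran from 11 to 33 fragments with a median of 15, and the background from 0.977 to 2.08 fragments. At 14 of the 27 peaks (51.9%) the background was at the caller's floor of 0.977 fragments, against 45.5% of the peaks held by any gene. This floor is the genome-wide average of the scaled input, so at these peaks it does not give the input at that place. Folds of 10 or more were reached by Spsb1 and Asb5, which makes 2 of 137 adaptor genes (1.46%) against 1.64% of all genes. The intervals of most other peaks overlapped widely, while those of Asb5 (8.03 to 18.0) and Fbxo32 (2.54 to 8.08), at the ends of the remaining range, barely met.

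**Figure D2:**
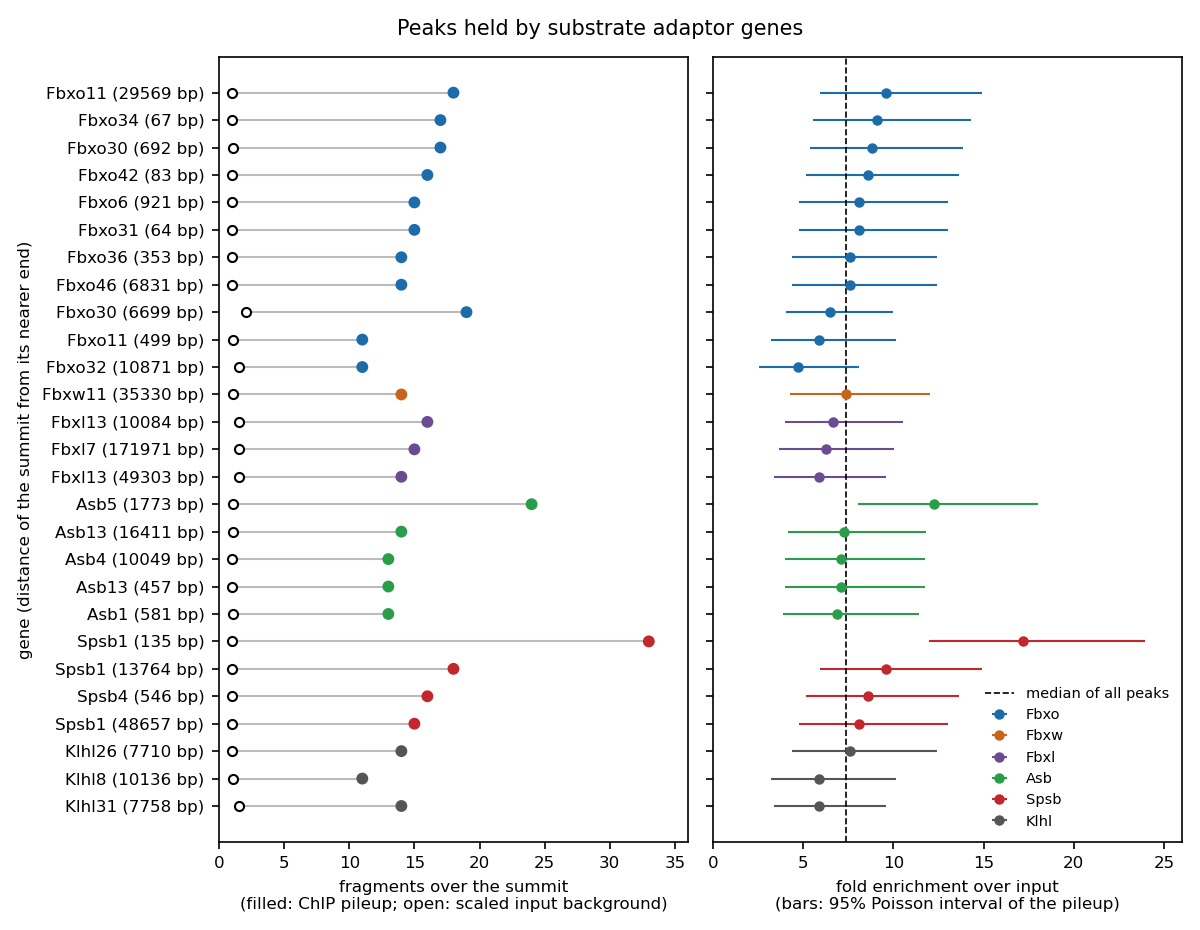
All 27 peaks held by adaptor genes, ordered by family and fold, with the distance of the summit from the nearer end of the gene beside each name. Left, ChIP fragments (filled) and scaled input background (open); right, fold enrichment with its 95% Poisson interval and the median of all peaks (7.35, dashed). The first Spsb1 peak, at 33 fragments and 17.2-fold, stands to the right of all others, followed by Asb5 at 24 fragments and 12.3-fold.

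The adaptor peaks within 1000 bp of a gene end were all near a start of the gene. Summits were within 1000 bp of an end of the gene at 11 of 27 peaks (40.7%, Wilson interval 24.5 to 59.3%), against 34.4% of the peaks held by any gene. Each of these 11 was also within 1000 bp of an annotated start of the gene, and none lay at the other end alone. Over all protein-coding genes, 866 peaks were near an end and 771 near a start (30.6% of the peaks held by any gene). The gap between these counts does not give the peaks at the other end alone. A start was available for only 17491 of the 21770 genes, and some starts lie inside the gene, far from both ends. These counts therefore do not show whether other genes differ from the adaptors in this. By gene, 11 of 137 adaptors (8.03%) had such a start peak, against 3.62% of all protein-coding genes, and the share near either end was again 8.03% against 4.12%. The 11 were Fbxo34, Fbxo30, Fbxo42, Fbxo6, Fbxo31, Fbxo36, Fbxo11, Asb13, Asb1, Spsb1 and Spsb4, so 7 of them were Fbxo genes (19.4% of that family) and none was an Fbxw, Fbxl or Klhl gene. Of the other 16 peaks, 5 were 1 to 10 kb and 11 more than 10 kb from both ends.

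**Figure D3:**
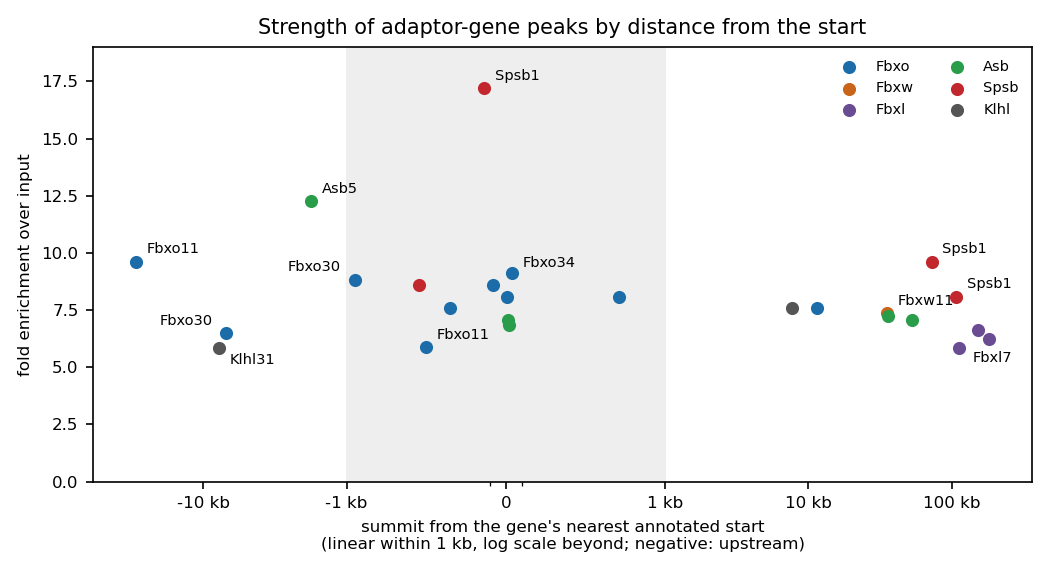
Fold enrichment of adaptor-gene peaks against the distance of the summit from the nearest annotated start of the same gene, with upstream to the left. The axis is linear within 1 kb (grey band) and logarithmic beyond. The 11 peaks in the band belong to Fbxo, Asb and Spsb genes, while the Fbxl peaks lie over 100 kb downstream of the start; Fbxo32 and Klhl8 are not drawn, since no start was used for them.

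The adaptor promoters that held a summit are shown with the matches to the core of the PAX7 paired domain motif, which some of them contain. RefSeq promoter windows (GRCm38.p6, from 250 bases before to 50 after an annotated start) were used for 111 of the 137 adaptors, and 6 of them had a summit inside the window. Capitals mark GTCACGC or its reverse complement, and each window is written along the strand of its gene. The windows are chr4:149954957-149955256 (minus strand) for Spsb1, chr14:47472311-47472610 (plus) for Fbxo34, chr4:141147672-141147971 (plus) for Fbxo42 and chr8:121578757-121579056 (minus) for Fbxo31. For Asb13 and Asb1, which were added after their values were seen because they hold a summit and no match, they are chr13:3633782-3634081 (plus) and chr1:91540315-91540614 (plus).
Spsb1: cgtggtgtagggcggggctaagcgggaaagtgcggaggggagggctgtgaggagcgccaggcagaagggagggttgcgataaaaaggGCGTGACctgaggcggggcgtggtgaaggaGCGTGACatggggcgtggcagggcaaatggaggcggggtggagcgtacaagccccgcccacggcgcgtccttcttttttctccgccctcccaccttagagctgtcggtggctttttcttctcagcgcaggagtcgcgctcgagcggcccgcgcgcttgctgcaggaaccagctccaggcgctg
Fbxo34: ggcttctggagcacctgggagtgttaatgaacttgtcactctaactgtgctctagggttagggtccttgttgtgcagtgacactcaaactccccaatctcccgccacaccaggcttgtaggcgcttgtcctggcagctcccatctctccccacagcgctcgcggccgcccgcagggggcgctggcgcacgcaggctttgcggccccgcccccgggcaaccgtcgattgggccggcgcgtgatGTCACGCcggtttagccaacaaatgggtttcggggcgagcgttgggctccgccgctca
Fbxo42: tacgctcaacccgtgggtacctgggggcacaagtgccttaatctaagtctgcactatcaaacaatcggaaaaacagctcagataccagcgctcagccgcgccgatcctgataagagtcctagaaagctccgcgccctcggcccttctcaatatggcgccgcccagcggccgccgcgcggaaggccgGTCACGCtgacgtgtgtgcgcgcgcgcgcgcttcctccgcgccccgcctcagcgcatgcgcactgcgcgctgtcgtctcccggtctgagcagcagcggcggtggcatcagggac
Fbxo31: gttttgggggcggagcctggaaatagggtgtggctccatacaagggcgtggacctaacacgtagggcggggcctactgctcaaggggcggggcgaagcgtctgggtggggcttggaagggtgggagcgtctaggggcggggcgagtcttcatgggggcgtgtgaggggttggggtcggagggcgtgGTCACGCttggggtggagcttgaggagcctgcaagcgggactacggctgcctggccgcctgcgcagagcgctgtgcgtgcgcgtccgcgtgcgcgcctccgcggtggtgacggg
Asb13: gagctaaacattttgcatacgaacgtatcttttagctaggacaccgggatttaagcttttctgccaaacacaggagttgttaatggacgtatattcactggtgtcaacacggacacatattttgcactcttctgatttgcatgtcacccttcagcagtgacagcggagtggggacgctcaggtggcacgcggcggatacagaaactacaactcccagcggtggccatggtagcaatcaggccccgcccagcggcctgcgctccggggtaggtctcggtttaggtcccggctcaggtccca
Asb1: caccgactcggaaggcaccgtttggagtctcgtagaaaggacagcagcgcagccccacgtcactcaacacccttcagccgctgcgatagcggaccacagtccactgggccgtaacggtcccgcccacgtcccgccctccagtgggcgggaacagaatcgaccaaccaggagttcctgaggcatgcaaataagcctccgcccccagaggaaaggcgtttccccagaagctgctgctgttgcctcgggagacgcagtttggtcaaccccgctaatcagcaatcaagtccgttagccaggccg

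Spsb1 carried 2 matches in this window, both on the reverse strand, with centres 25 bases upstream of the summit and 5 bases downstream of it. In Fbxo34 the match was centred 44 bases upstream of the summit, in Fbxo31 67 bases upstream, and in Fbxo42 22 bases downstream. All 5 matches lay inside the called peaks. The core was therefore held by 4 of the 6 windows (66.7%, Wilson interval 30.0 to 90.3%). In the same kind of window of other genes with a summit inside, 84 of 564 held it (14.9%, 12.2 to 18.1%), and in all protein-coding windows 2.66%. Adaptor windows with no summit within 1000 bp had it in 3 of 138 (2.17%), close to the 2.27% of all such windows. The windows of the 11 start-peak genes were rich in G and C (53.7 to 79.7%, median 66.3%, against 56.3% in all windows), and among all windows in that range 3.89% held the core. Fbxo6 also had a match in its window, but its summit lay 722 bases away. These are matches of letters, not shown binding sites, and the share of adaptors rests on 6 windows.

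**Figure D4:**
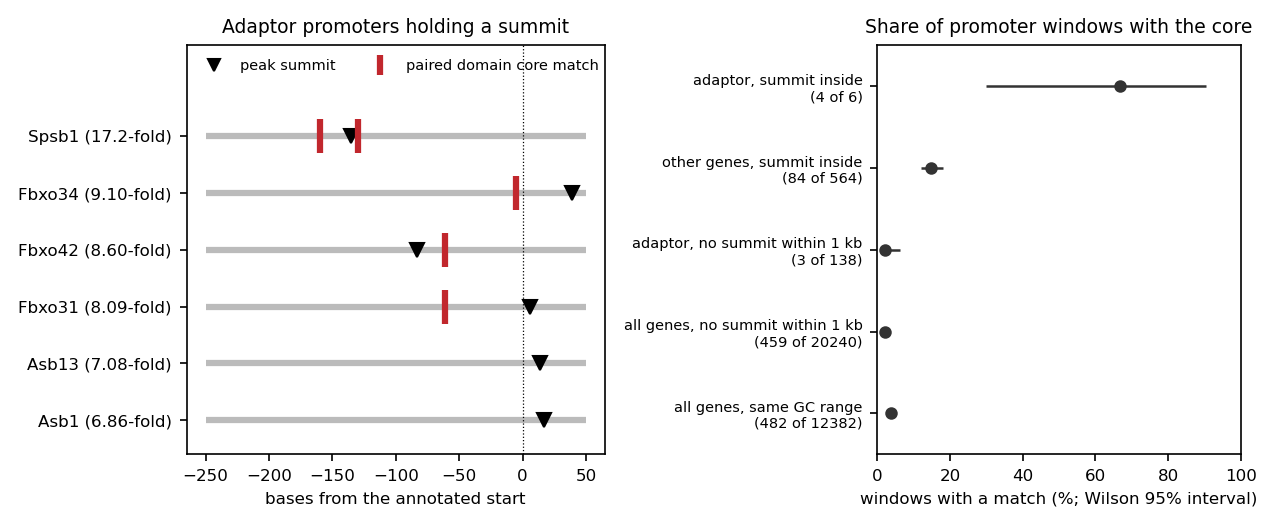
Left, the 6 adaptor promoter windows with a summit inside, drawn from 250 bases before to 50 after the annotated start (dotted line), with the summit (triangle) and the matches to the paired domain core (red bars); folds stand beside the names. Right, percent of promoter windows with at least 1 match and its Wilson 95% interval in 5 sets of windows; 4 of 6 adaptor windows with a summit had one, against 84 of 564 windows of other genes.

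Other motifs were also searched on both strands, and the percent of all windows with each is given in brackets. The homeodomain pair sites, in which TAAT faces ATTA with 2 or 3 bases between, were in 0 of the 6 adaptor windows with a summit (0.315% and 0.362% of all windows). The homeodomain core TAAT was in 4 of 6 (51.8%), the E-box CANNTG in 4 of 6 (69.0%) and its form CAGCTG, which the other pattern includes, in 0 of 6 (15.6%). GGGCGG, the GC box, was in 6 of 6 (46.2%), and CCAAT in 1 of 6 (38.2%). The AP-1 site TGANTCA (6.99%), CCGGAAG of the ETS factors (11.6%) and the cAMP response element TGACGTCA (2.23%) were in 0 of 6. For motifs as rare as these and the homeodomain pair sites, 6 windows are too few to show a difference. Windows with a summit inside from any gene held GGGCGG at 73.7%, TAAT at 54.9%, CANNTG at 59.5%, CAGCTG at 14.0%, CCAAT at 49.3% and CCGGAAG at 19.8%. They held the homeodomain pair sites at 0% and 0.526%, TGANTCA at 5.09% and TGACGTCA at 4.56%.

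Among the Fbxo genes, which have an F-box and no shared substrate-binding repeat, Fbxo11 and Fbxo30 held 2 peaks each and 7 others 1. Fbxo11, a regulator of the repressor BCL6, had its stronger peak at chr17:88095513-88095726, 29569 bp upstream of the start, with 18 ChIP fragments over a background of 0.977 (9.61-fold, 5.90 to 14.9). The weaker, 499 bp upstream, had 11 fragments over 1.04 (5.88-fold, 3.18 to 10.1), and the intervals of the pair overlapped. Fbxo30, known as MUSA1, a ligase component of muscle atrophy, had 17 fragments over 1.04 at 692 bp from the gene (8.82-fold, 5.35 to 13.8). Its second peak, 6699 bp away, had more ChIP fragments, 19, but over a background of 2.08, the highest of all adaptor peaks (6.49-fold, 4.04 to 9.96). Thus the order of its peaks by fragments and by fold was reversed.

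At Fbxo34 the ChIP library had 17 fragments over the floor background of 0.977 at chr14:47472484-47472752 (9.10-fold, 5.51 to 14.3), with the summit 39 bp past the start. Fbxo42, which targets p53, had 16 over the same background at chr4:141147740-141147934 (8.60-fold, 5.13 to 13.6), 83 bp upstream. A stronger peak of 10.1-fold lay 5084 bp from Fbxo42 but nearer to Szrd1. Fbxo31, an adaptor for cyclin D1, and Fbxo6, which recognises glycoproteins, each had 15 over 0.977 (8.09-fold, 4.75 to 13.0). The Fbxo31 summit was 6 bp and the Fbxo6 summit 711 bp past the start. Fbxo6 stands in a row with Fbxo44 and Fbxo2, whose nearer ends were 1585 and 8984 bp from the same summit, and which held no peak by the rule. Fbxo36 and Fbxo46 tied at 14 fragments over 0.977 (7.59-fold, 4.38 to 12.4). The Fbxo36 peak, 353 bp upstream, also lay inside the neighbouring ubiquitin ligase gene Trip12, 184 bp upstream of a Trip12 start, so it cannot be given to either gene. It was the only one of the 11 start peaks with the start of another protein-coding gene within 1000 bp, among the 17491 genes with a start.

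Fbxo32 had the weakest adaptor peak. The summit lay inside the gene, 10871 bp from its nearer end, at chr15:58203972-58204170, with 11 ChIP fragments over a background of 1.56 (4.69-fold, 2.54 to 8.08; deposited −log10 q of 3.40). By fold it ranked 2899 of 2977. A stronger peak of 7.08-fold was 40740 bp from Fbxo32 but nearer to Atad2. Fbxo40, a muscle F-box gene, held none, and the nearest summit was 450 kb from its span.

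Fbxw proteins bind substrates through WD repeats, and Fbxw11, a beta-TrCP protein that acts on beta-catenin and the NF-kappa-B inhibitor, was the only one of 24 with a peak. It was inside the gene, 35330 bp past the start, at chr11:32677801-32677994, with 14 fragments over 1.04 (7.35-fold, 4.24 to 12.0). Fbxw7, the adaptor for cyclin E, Myc and Notch, held none, the nearest summit being 118 kb away. Of the 24, 15 stand in a row on chromosome 9, from Fbxw21 to Fbxw27, and 0 of these held a peak; the nearest summit was 79.7 kb from Fbxw21 and 706 kb from Fbxw27. How reads from such similar copies were mapped was not tested. Without these 15 genes, 21 of 122 adaptors held a peak (17.2%, 11.5 to 24.9%). This count was added after the data were seen, and leaving out genes without a peak can only raise the share.

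Fbxl proteins use leucine-rich repeats, and their 3 peaks all lay deep inside 2 long genes. Fbxl13, of 162 kb, held summits 112 kb and 152 kb past its start, with 14 and 16 fragments over 1.56 (5.86-fold, 3.38 to 9.57, and 6.64-fold, 3.96 to 10.5). The nearest ends were those of Lrrc17, at 10377 bp, and Fam185a, at 5660 bp, so Fbxl13 holds them only by its span. In Fbxl7, of 355 kb and an adaptor for the kinase Aurora A, the summit was 172 kb from the nearer end, with 15 over 1.56 (6.25-fold, 3.67 to 10.1) at chr15:26712339-26712510. The best Fbxl peak was thus Fbxl13 at chr5:21493881-21494067. All 3 had a background above the floor. Fbxl22, a sarcomere-associated adaptor, and Fbxl21, of the circadian clock, held none, with nearest summits at 106 and 986 kb.

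Asb proteins pair ankyrin repeats with a SOCS box, and 4 of the 18 genes held 5 peaks. Asb5, known for its expression in satellite cells and growing muscle, had the strongest, at chr8:54548167-54548805. There the ChIP library had 24 fragments and the scaled input 1.04, which gave 12.3-fold (8.03 to 18.0) and rank 150 of 2977. The summit was 1773 bp upstream of the start, and the peak was 639 bp wide, the widest of the adaptor peaks, whose median was 195 bp. Asb13 had a start peak with 13 over 0.977 (7.08-fold, 4.01 to 11.8), and 36.2 kb from it, beyond the gene, another with 14 over 1.07 (7.24-fold, 4.17 to 11.8). Asb4 had 13 over 0.977 (7.08-fold) 10049 bp beyond the gene, and Asb1 13 over 1.04 (6.86-fold, 3.88 to 11.4) at 17 bp past a start. These peaks had 13 or 14 ChIP fragments each. Asb2, which acts on filamins in muscle, held none, with the nearest summit 69.9 kb from it.

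Spsb proteins join a SPRY domain to a SOCS box, and inducible nitric oxide synthase is a known substrate. Spsb1 held 3 peaks over 107.5 kb, more than any other adaptor, and none of them was inside the gene. The strongest, at chr4:149954993-149955308 and 135 bp upstream of the start, had 33 ChIP fragments over the floor background of 0.977, with the windowed sequence shown above. Its fold was 17.2 (12.0 to 23.9; deposited −log10 q of 33.4), rank 18 of 2977. The other summits lay beyond the opposite end of the gene, at 13764 bp with 18 fragments over 0.977 (9.61-fold, 5.90 to 14.9) and at 48657 bp with 15 over 0.977 (8.09-fold, 4.75 to 13.0). Intervals of the first and the second overlapped. Spsb4 had 16 over 0.977 at chr9:97018712-97019014, 546 bp upstream of its start (8.60-fold, 5.13 to 13.6). Spsb2 and Spsb3 held none, with nearest summits 146 and 382 kb away. All 4 Spsb peaks had the background at the floor.

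More than 1 peak was held by 5 adaptors, Spsb1, Fbxo11, Fbxo30, Asb13 and Fbxl13 (3.65% of 137), against 1.71% of all genes. Neighbouring summits in them were 6.01 kb apart in Fbxo30 and from 29.1 to 72.6 kb apart in the others.

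Klhl proteins, which combine a BTB domain with kelch repeats, had 3 peaks at 3 of 37 genes. None was within 1000 bp of an end of the gene, and none was at a start that was used. For Klhl8 no start was used. Klhl26 led with 14 fragments over 0.977 at chr8:70469173-70469364, inside the gene and 7664 bp past the start (7.59-fold, 4.38 to 12.4). Klhl8 had 11 over 1.04 inside the gene (5.88-fold, 3.18 to 10.1). Klhl31, a muscle gene of the family, had 14 over 1.56 at 7758 bp upstream of its start (5.86-fold, 3.38 to 9.57). Klhl40 and Klhl41, which stabilise thin filament proteins and are nemaline myopathy genes, held none, with nearest summits 58.6 and 560.0 kb from their spans.

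The 116 adaptors without a peak fell into 2 kinds. In 24 of them a summit was within 50 kb of an end, but another gene was nearer. The closest was that of Fbxl6, at 153 bp, where Slc52a2 was nearer (6.07-fold). The strongest was a 14.7-fold peak 38487 bp from Asb16 and nearer to Hdac5. Another 92 had no summit within 50 kb of the span, and 31 of these none within 500 kb. At the limit itself, the farthest peak held from outside was the Spsb1 peak at 48657 bp (8.09-fold). No such peak lay just beyond the limit, and the next were those nearest to Fbxl17, at 151808 bp (6.37-fold) and 153302 bp (12.6-fold), and to Klhl29, at 378365 bp (4.87-fold). On the X chromosome 0 of 7 adaptors held a peak, among them Asb11, 49.1 kb from a summit nearer to Vegfd, against 1.45% of all X-linked protein-coding genes.

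The rest of the pathway was read under the same rule, against the 9.63% of all genes. In the cullin core 3 of 14 genes held a peak, each within 1000 bp of an end, where 42.7% of all genes with a peak had one. Rbx1, the RING subunit of most cullin ligases, had 20 fragments over 0.977 (10.6-fold, 6.69 to 16.1), Cul4a 15 over 1.04 (7.84-fold, 4.61 to 12.6) and Cul3, the scaffold for the Klhl proteins, 10 over 1.12 (5.19-fold, 2.74 to 9.16). Cul1 and Cul5, the scaffolds of the F-box and SOCS-box proteins, held none. Among genes of neddylation, which switches cullins on, and of the COP9 signalosome, which reverses it, 3 of 22 did. They were Ube2f (7.59-fold), the NEDD8 protease gene Senp8 (7.08-fold) and the signalosome subunit gene Cops4 (6.37-fold). The ubiquitin-conjugating partners had 0 of 7.

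Cullin ligase adaptors that carry other names, not all of them of the classes above, held peaks at 8 of 35 genes (22.9%, 12.1 to 39.0%). Of these 8, 7 had a peak within 1000 bp of an end, as did 42.7% of all genes with a peak. Socs5 led with 24 fragments over 0.977 (12.6-fold, 8.28 to 18.6), followed by Socs3 (10.6-fold), which restrains cytokine signalling, and Fem1c (10.1-fold). Kbtbd2 had 8.09-fold, Keap1, the Cul3 adaptor that holds down NRF2, 7.59-fold, Fem1b 7.59-fold, Wsb1 6.58-fold and Kbtbd8 6.25-fold. Of the muscle ubiquitin ligases outside these classes, Cblb (6.25-fold) and Stub1 (6.07-fold) held a peak and the other 7 did not, the atrophy gene Trim63 (MuRF1) among them. Over these lists, 7 promoter windows had a summit inside, and 1 of them, that of Rbx1, held the paired domain core, against 15.4% of all windows with a summit inside.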

How the data were processed

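Sequencing of ChIP and input was single-end with 50 bp tags, per the labels' protocols. The submitters' processing notes name the build GRCm38 and the tools bcl2fastq, HISAT2 and MACS2 2.1.1. Narrow peaks were called on 1 ChIP library against 1 input with MACS 2.1.1.20160309 (q limit 0.01, fragment length 172 bp), per the file headers; nothing was pooled. The deposited pileup is a signal, the ChIP fragments over the summit. Fold enrichment was deposited as a ratio of pileup + 1 to background + 1, with the input scaled to the ChIP depth (factor 0.520). The caller's p-value and q-value were deposited as −log10.

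The background was recovered from fold and pileup, so it is the caller's background and not an input count. It is a local value above the floor, and the genome-wide average of the scaled input at the floor. Gene spans came from RefSeq genes of GRCm38.p6; 126 protein-coding genes placed on scaffolds or patches, with no adaptor among them, and 2 peaks off the chromosomes were left out. Start sites and promoters came from the RefSeq promoter table (21262 windows of 17491 protein-coding genes), which gave a start for 19 of the 21 adaptors with a peak; introns and exons were not analysed here. The assignment was checked on simulated summits. Computations used Python 3.11.15, pandas 2.3.3 and scipy 1.17.1.

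Members and lists were chosen with earlier results of these data known. Every adaptor with a peak was named, with full values for the best of each family and for folds of 10 or more, and 10 muscle adaptors and those at the 50 kb limit whatever their values; promoters were printed where a summit was within 250 bp of an end of the gene, plus 2 more. The span classes, the count without the Fbxw row of chromosome 9 and the motif shares by summit and GC content were added after the data were seen. Other neighbours and the genes of the lists were named after their values were seen. With 1 library a group nothing was tested.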

Additional observations from a re-analysis of the deposited data

How the results depend on the processing

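Of 73 values under the alternative settings, 2 of them added after the data were seen, 61 stayed near the main one (counts within 1.5 times, other values within the 95% interval of the main value). Some of the 61 could not have moved, so the tally overstates stability. They are every value without the top 1% of peaks by pileup, and the adaptor count without the Fbxw row of chromosome 9. The median highest fold of the adaptor genes and the share of their peaks near a gene end were among the 61 in every setting run, including a gene-end window of 2500 bp. The median ran from 7.22 to 8.60-fold. The share ran from 36.7 to 53.3%, within a wide main interval of 24.5 to 59.3%. Both were highest with only the peaks whose −log10 q reached the median. With only the peaks whose −log10 q reached the median, 12 adaptors held a peak in place of 21 (8.76%, where all genes fell to 5.23%), with 1 Asb, 1 Klhl, 0 Fbxl and 0 Fbxw genes. With summits inside the span only, again 12 did (8.76%, against 5.49% of all genes), with 5 Fbxo, 2 Asb and 0 Spsb genes. With the nearest end only, 0 Fbxl genes did. Counting any overlap with the span gave 21, a limit of 10 kb 20, and no limit 23. Dropping the top 1% of peaks by pileup also gave 21, but this was fixed beforehand. The 99th percentile of pileup was 41.2 fragments, and no adaptor peak exceeded 33. No paired analysis was possible because each group has 1 library, and for the same reason no replicate could be left out. Pileups of 11 to 33 fragments limit the precision of every fold, and families of 4 to 37 genes that of every share.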

Other observations

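Name families of other ubiquitin ligase genes were counted under the same rule, against 9.63% of all protein-coding genes. Kctd genes, BTB proteins of which several are Cul3 adaptors, held peaks at 1 of 22, Kctd15 (7.08-fold, 4.01 to 11.8). Dcaf genes, the adaptors of Cul4 ligases, held them at 3 of 15, namely Dcaf6 (7.59-fold), Dcaf5 (6.07-fold) and Dcaf11 (5.98-fold). Among Trim genes, RING ligases with a coiled coil, 5 of 68 did (7.35%, Wilson interval 3.18 to 16.1%). Of these 5, 1 had a peak within 1000 bp of an end, against 42.7% of all genes with a peak. Trim2 led at 9.61-fold (5.90 to 14.9), inside the gene and 212 bp upstream of an annotated start. Trim27 followed at 9.10-fold (5.51 to 14.3), 18177 bp outside the gene, and both genes held 2 peaks. Among Rnf genes 5 of 83 did (6.02%, 2.60 to 13.3%), with Rnf150 at 12.6-fold (8.28 to 18.6), 41668 bp inside the gene. Socs genes had 2 of 7, Socs5 and Socs3, the Socs3 peak lying 33623 bp outside the gene. No difference between these families was tested.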
